A study of Mus musculus with 20 samples.

Results

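The teneurins and latrophilins are 7 genes of the mouse, the 4 teneurins Tenm1, Tenm2, Tenm3 and Tenm4 and the 3 latrophilins Adgrl1, Adgrl2 and Adgrl3. They were picked out by gene symbol, and the list was chosen with earlier results of these data known. All 7 were found among the 37994 genes tabulated for a developmental series of the habenula. The same 7 were found among the 36104 genes tabulated for a second set of plates at E18. Teneurins are large single-pass membrane proteins of neurons that bind one another and bind latrophilins across the synaptic cleft. Latrophilins are adhesion G protein-coupled receptors that take teneurins and FLRT proteins as ligands, and their intracellular ends bind SHANK scaffolds. FLRT proteins also bind UNC5 netrin receptors, and together these families are known for the matching of axons to their targets. The habenula is a paired epithalamic nucleus whose medial division sends axons to the interpeduncular nucleus. Pou4f1 (Brn3a) is a transcription factor of habenula neurons, Tac1 encodes the precursor of substance P in dorsal medial habenula neurons, and Chat encodes the acetylcholine-synthesising enzyme of ventral ones.

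Single cells were processed in 20 plates of 384 wells by Cel-seq2, which counts the 3' ends of polyadenylated transcripts with unique molecular identifiers (UMIs). In the developmental series, 15 plates came from the Brn3a-tauLacZ mouse line, named for a tau-LacZ reporter at Brn3a. The labels do not state the genotype of these mice at the reporter, and all stages of the series share the line. The embryonic stages were E11, E12, E13, E15 and E18 (days after conception) and the postnatal ones P4, P7 and adult, with 2 plates a stage except E12, which had 1. The second set, 5 plates at E18, came from C57BL/6 mice, of which 2 held the left habenula, 2 the right and 1 both sides. The title of this last plate gives E1 as its stage, and its other labels give E18. The plate was the replicate throughout. Nothing in the labels says that plates of a stage came from separate litters. In the stage and side comparisons p-values therefore measure the spread between plates, which may be technical. Where classes of wells are compared within plates, they rest on how the difference between classes varied from plate to plate. In both kinds of test the spread of a gene is estimated partly from other genes. For a member whose plates vary more than that, the standard error and p-value can be too small.

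A well was kept with at least 1000 non-mitochondrial counts, at least 500 genes and at most 20% mitochondrial counts. This left 3729 of 5756 wells in the series and 1082 of 1920 in the second set. Plates held between 758697 and 7760372 counts in kept wells. Habenula identity varied between plates: a Pou4f1 UMI was found in 88.1% to 92.2% of kept wells at E11, P4 and P7. The share was 28.1% on E18 plate 1, 51.1% on E13 plate 2, and 37.5% and 52.6% on adult plates 1 and 2. Kept wells of adult plate 1 were shallow, with a median of 5058 counts. E18 plate 1 stood apart in other markers too. Its habenula neuron markers (4 of 4 above 0) summed to 455 CPM (counts scaled so that every plate has the same total), against 4134 (4 of 4) on E18 plate 2. Its progenitor markers (7 of 7) summed to 3692 CPM, against 216 (6 of 7) on E18 plate 2 and 304 and 342 at P4 (7 of 7). Its astrocyte markers (5 of 5) summed to 1307 CPM, against 279 (4 of 5) on E18 plate 2 and 82.2 and 110 at P4 (5 of 5). The 2 adult plates carried oligodendrocyte-lineage markers at 8373 and 2487 CPM, against 121 and 151 at P7. The changes from E18 to P4 that passed are therefore also given without E18 plate 1 or over Pou4f1-positive wells.

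The members are large genes, apart from Adgrl1. In the GENCODE M21 annotation of GRCm38 (the assembly behind mm10), Tenm2 spans 1229 kb on chromosome 11 (36006656 to 37235964) and Tenm1 901.3 kb on the X chromosome (42527866 to 43429126). Adgrl3 spans 805 kb on chromosome 5 (81020138 to 81825133), Tenm4 739.8 kb on chromosome 7 (96171246 to 96911093) and Tenm3 616.3 kb on chromosome 8 (48227682 to 48843951). Adgrl2 spans 175 kb on chromosome 3 (148815583 to 148990555), and Adgrl1 41.85 kb on chromosome 8 (83900105 to 83941954). All 7 overlap at least 1 other annotated gene, of which Sh2d1a in Tenm1 and Gm10644 at Adgrl1 are protein-coding. Whether counting used strand is not given, so reads of an overlapping gene cannot be told apart from those of the member, and every level here is uncertain to that extent.

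Tenm2 and Tenm3 are teneurins whose levels differed in opposite directions between E18 and P4 and between classes of wells, as given below. Their start-site windows in RefSeq (GRCm38.p6), from 250 bases before to 50 bases after the annotated start, are shown for these 2 paralogs. Both windows lie inside the gene spans given above, so they surround an internal start and not the 5' end of the span. Both lie on the minus strand, Tenm2 at chr11:36944192-36944491 and Tenm3 at chr8:48674641-48674940, and capitals mark TAATTA, a core that many homeodomain proteins recognise.
Tenm2: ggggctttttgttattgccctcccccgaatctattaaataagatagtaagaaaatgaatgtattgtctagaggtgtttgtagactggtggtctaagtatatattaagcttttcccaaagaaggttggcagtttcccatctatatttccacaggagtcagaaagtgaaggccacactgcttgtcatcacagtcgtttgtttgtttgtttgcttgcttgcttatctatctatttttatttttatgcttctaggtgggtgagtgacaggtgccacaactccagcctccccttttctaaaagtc
Tenm3: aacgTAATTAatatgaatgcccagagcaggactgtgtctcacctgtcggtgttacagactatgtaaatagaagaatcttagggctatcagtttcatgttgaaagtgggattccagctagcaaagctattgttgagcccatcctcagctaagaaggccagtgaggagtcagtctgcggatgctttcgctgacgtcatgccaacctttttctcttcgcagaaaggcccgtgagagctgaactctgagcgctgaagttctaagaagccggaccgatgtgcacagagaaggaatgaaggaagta
TAATTA, which reads the same on both strands, occurred once in the Tenm3 window, starting at base 5, and 0 times in the Tenm2 window. It was found in 5.29% of 32851 windows of the same 300 bases, and in 1 of the 10 windows of the 7 members. These are matches of letters, not binding sites, and the window of each gene covers 1 of its possible starts.

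Most counts of the teneurins and of Adgrl3 were counted as unspliced, that is, as reads over introns. Over the 20 plates, the unspliced share of Tenm3 ran from 90.1% to 97.7% (median 93.7%), and that of Tenm2 from 87.6% to 96.8% (median 91.9%). The share of Adgrl3 ran from 81.0% to 91.3% (median 86.6%), that of Tenm1 from 64.0% to 98.1% (median 76.6%), and that of Tenm4 from 43.6% to 66.7% (median 62.8%). All genes together stood at 17.6% to 28.9%, so these 5 members were above that level on 20 of 20 plates. The level pools the counts of all genes, and how many single genes were above it was not counted. Adgrl2 had a median of 36.6% and was above the pooled level on 19 of 20 plates. The exception was adult plate 1, where Adgrl2 had only 3 counts, 0 of them unspliced. Adgrl1, the member with the shortest gene, was the reverse: its share ran from 0.471% to 5.37% (median 1.16%), below all genes on 20 of 20 plates. The levels of Tenm2, Tenm3 and Adgrl3 were thus mostly levels of reads over introns, and the main comparisons were repeated on spliced counts. Whether such reads came from unspliced RNA of the member was not tested. For Tenm1 the share was 64.0% to 67.5% on the 4 plates of P4 and P7, against 74.7% to 98.1% on the 9 series plates up to E18. The adult plates were at 86.3% and 72.4%, and the C57BL/6 plates ran from 70.2% to 83.1%. The highest share, at E15, rested on 53.0 counts.

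**Figure D1:**
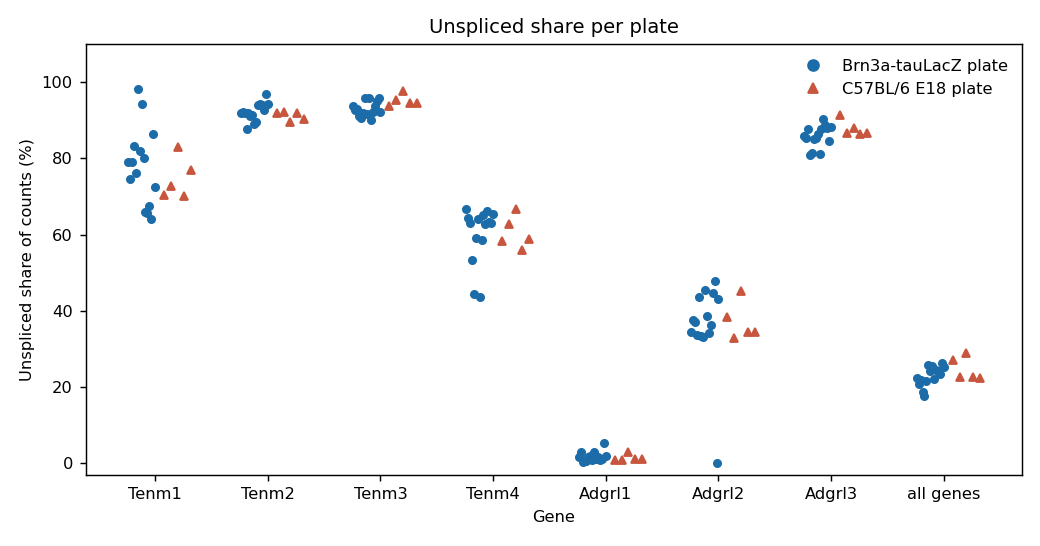
Unspliced share of counts (percent, vertical axis) for each of the 7 members and for all genes together, with 1 point per plate (circles, 15 Brn3a-tauLacZ plates; triangles, 5 C57BL/6 plates at E18). Tenm2, Tenm3 and Adgrl3 sit above 80%, and Adgrl1 lies under 6%, below all genes.

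Between E18 and P4, 5 of the 7 members passed the test in the main fit: Tenm1 and Tenm2 rose, and Tenm3, Adgrl2 and Adgrl3 fell. Across all genes, 19.6% passed the same test, 9.2% higher at P4 and 10.4% lower (adjusted p under 0.05, Benjamini-Hochberg, edgeR quasi-likelihood test over the 14 plates of stages with 2 plates). The members' median log2 change was -0.67, against -0.07 over all 17453 genes tested. Fitted on the 4 plates of E18 and P4 alone, where 3.58% of genes passed, only Adgrl2 of the 7 members passed. In a sum over the wells of a plate, fewer cells of a type and less RNA per cell cannot be told apart.

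Tenm2, the teneurin first described as a ligand of Adgrl1, stood at 943 and 1002 CPM on the E11 plates, 1679 on the E12 plate, 618 and 332 on the E13 plates, 750 and 1045 on those of E15, and 316 and 436 on those of E18. After birth the P4 plates gave 4398 and 5835, the P7 plates 4127 and 3692, and the adult plates 1733 and 2597. Every postnatal plate was above every embryonic plate of the series. The log2 rise from E18 to P4 was 3.98 ± 0.44 (SE, 2 plates against 2, adjusted p = 0.000679), and over Pou4f1-positive wells it was 3.89 ± 0.42 (adjusted p = 0.000297). With each of the 4 plates left out in turn, which leaves 1 plate at its stage, the log2 rise ran from 3.68 to 4.40. Spliced Tenm2 alone went from 45.2 and 61.7 CPM at E18 to 334 and 418 at P4, a log2 rise of 2.97 ± 0.51 (adjusted p = 0.00394), in a fit where 20.9% of genes passed. In order of stage means, P4 (5116 ± 1016 CPM, SD, n = 2) was followed by P7 (3909 ± 307) and the adult (2165 ± 611), and neither neighbouring pair differed past the threshold.

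Tenm1, the X-linked teneurin, was at 153 and 149 CPM on the E11 plates, 93.4 on the E12 plate, 47.8 and 89.3 on the E13 plates, 28.8 and 71.1 on those of E15, and 20.8 and 52.8 on those of E18. The P4 plates gave 220 and 245, the P7 plates 233 and 219, and the adult plates 291 and 235. The level at P4 was above every embryonic plate of the series, and the stage means of P4, P7 and the adult (232 ± 17.7, 226 ± 9.7 and 263 ± 40.0) differed by less than the spread of the adult plates. The log2 rise from E18 to P4 was 2.89 ± 0.51 (adjusted p = 0.00451). It was 2.81 ± 0.65 over Pou4f1-positive wells (adjusted p = 0.011). With each of the 4 plates left out in turn, which leaves 1 plate at its stage, it ran from 2.26 to 3.86. In spliced counts it was 4.13 ± 0.88 (adjusted p = 0.00947), from 1.57 and 14.1 CPM to 96.2 and 112. The spliced values at E18 rest on few counts. Tenm1 had 52.0 and 70.0 counts on the E18 plates, of which 49.0 and 56.0 were unspliced.

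Tenm3, known for the wiring of visual and hippocampal circuits, fell from E18 to P4. It stood at 1206 and 1082 CPM on the E11 plates, 983 on the E12 plate, 565 and 343 on the E13 plates, 311 and 534 on those of E15, and 649 and 311 on those of E18. The P4 plates gave 136 and 141, the P7 plates 255 and 340, and the adult plates 156 and 174. Every P4 and adult plate was below every embryonic plate of the series. The fall from E18 to P4 was -1.55 ± 0.37 on the log2 scale (adjusted p = 0.0174), and -1.30 ± 0.38 over Pou4f1-positive wells (adjusted p = 0.0297). It did not pass without E18 plate 1 (-1.04, adjusted p = 0.109), without either P4 plate, or in spliced counts (-1.38 ± 0.46, adjusted p = 0.0552). From P4 to P7 both P7 plates were above both P4 plates, with a log2 difference of 1.08 ± 0.37. That difference had an adjusted p of 1.0 over all 14 plates, in which 0.00573% of genes and 0 of 7 members passed in edgeR, with 1 member under an unadjusted 0.05 and 0 in DESeq2. Over the 4 plates of P4 and P7 alone it had an adjusted p of 0.00406, with 3.64% of genes passing.

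Tenm4, a teneurin known for its part in oligodendrocyte differentiation, gave no change between neighbouring stages that passed the test. Its levels over the 15 series plates ran from 30.9 to 214 CPM, and both of these values came from E18, on plate 2 and plate 1. Its log2 difference from E18 to P4 was -0.67 ± 0.59 (adjusted p = 0.436). Without E18 plate 1 it was 1.19 (adjusted p = 0.12), and without E18 plate 2 it was -1.35 (adjusted p = 0.0194). At P4 and P7 its 4 plates lay between 62.3 and 74.3 CPM.

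**Figure D2:**
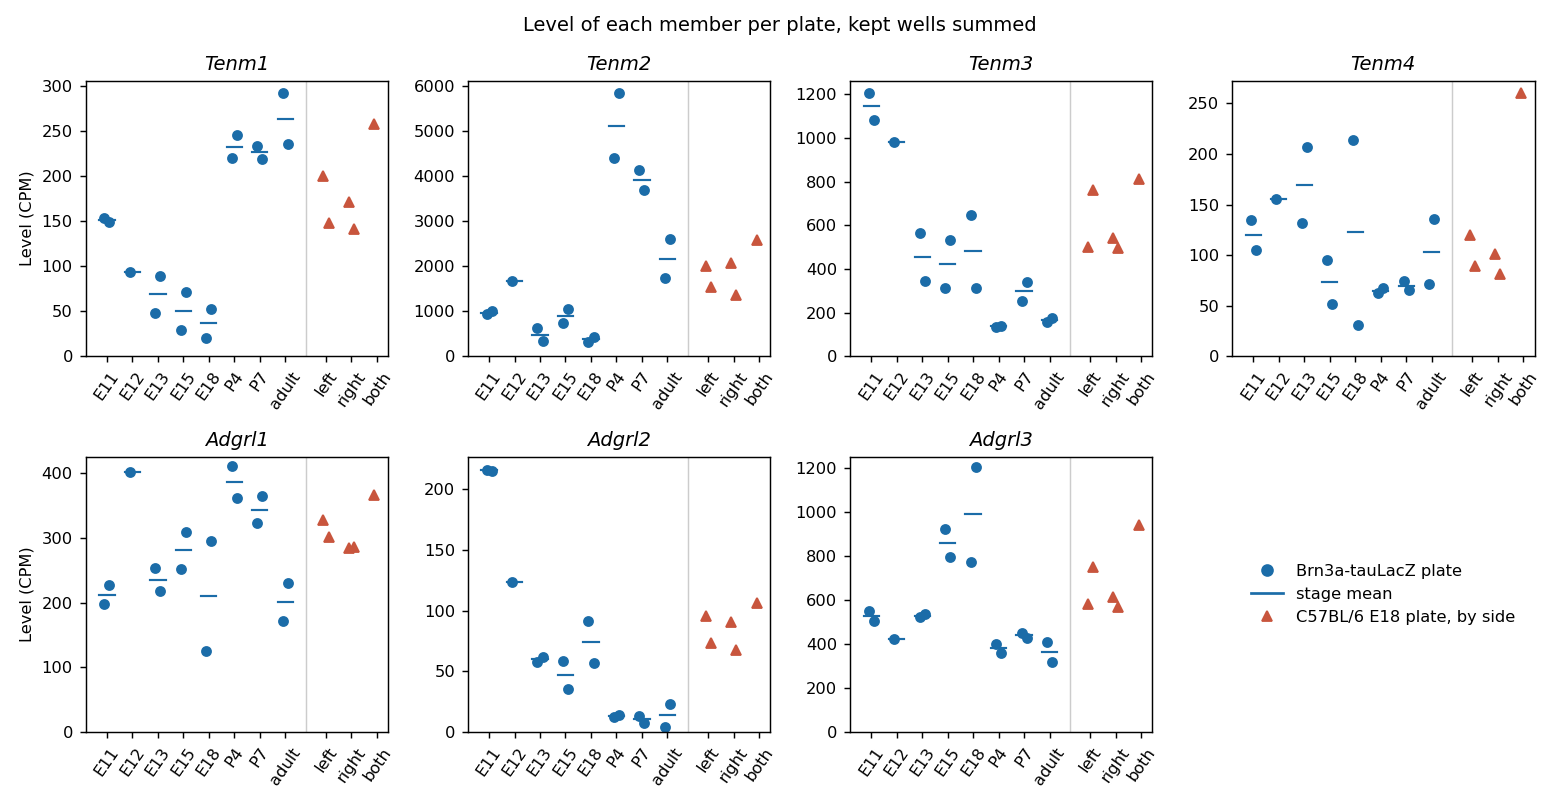
Level of each member (CPM of all kept wells, vertical axis from 0, a separate scale per gene) by stage, with 1 circle per Brn3a-tauLacZ plate, a line at the stage mean and 1 triangle per C57BL/6 E18 plate by side. Tenm2 stood at 4398 and 5835 CPM at P4 after 316 and 436 at E18, while Adgrl2 dropped from 216 and 215 at E11 to 12.4 and 14.0 at P4.

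Among the receptors, Adgrl2 fell to a low level. It stood at 216 and 215 CPM on the E11 plates, 123 on the E12 plate, 57.4 and 62.1 on the E13 plates, 58.6 and 35.1 on those of E15, and 91.4 and 56.5 on those of E18. The P4 plates gave 12.4 and 14.0, the P7 plates 13.5 and 7.7, and the adult plates 4.0 and 23.5. Every postnatal plate was below every embryonic one. The fall from E18 to P4 was -2.26 ± 0.45 on the log2 scale (adjusted p = 0.00798) and -2.42 ± 0.44 over Pou4f1-positive wells (adjusted p = 0.00338). It was -2.19 ± 0.38 in spliced counts (adjusted p = 0.00384). It did not pass without P4 plate 1 (adjusted p = 0.0799) or plate 2 (adjusted p = 0.0729).

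Adgrl3, a postsynaptic receptor of teneurins and FLRT3, was highest on plates of E15 and E18. It stood at 548 and 507 CPM on the E11 plates, 424 on the E12 plate, 521 and 535 on the E13 plates, 923 and 795 on those of E15, and 772 and 1207 on those of E18. The P4 plates gave 402 and 360, the P7 plates 451 and 427, and the adult plates 410 and 317. The fall from E18 to P4 was -1.18 ± 0.27 (adjusted p = 0.0147), and it was larger in spliced counts (-1.88 ± 0.36, adjusted p = 0.00661). Over Pou4f1-positive wells it was -1.39 ± 0.27 (adjusted p = 0.00484), and without E18 plate 1 it was -1.54 (adjusted p = 0.00342). It did not pass without E18 plate 2 (-0.65, adjusted p = 0.0549) or without either P4 plate (adjusted p = 0.0942 and 0.129).

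Adgrl1, known as the receptor of the spider toxin alpha-latrotoxin, ran from 126 to 411 CPM over the series. The lowest value was E18 plate 1, the plate with few Pou4f1-positive wells, and the highest was P4 plate 1. Its log2 difference from E18 to P4 was 1.06 ± 0.37 (adjusted p = 0.0644), and over Pou4f1-positive wells, where 20.4% of genes passed, it rose by 0.82 ± 0.26 (adjusted p = 0.0413). It also passed with no filter on low counts (1.15, adjusted p = 0.00246) and without E18 plate 2 (1.99, adjusted p = 0.00108). Without E18 plate 1 it was 0.51 (adjusted p = 0.28). Fitted on the 4 plates of E18 and P4 alone, a test with few degrees of freedom in which 3.58% of genes passed, only Adgrl2 of the 7 members passed (adjusted p = 0.0384). Tenm2 then had an adjusted p of 0.052 and Tenm1 of 0.0692, at log2 differences of 3.89 and 2.79.

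In the fit over all 14 plates, no member passed in the other steps between stages. Between E11 and E13, where 1.45% of genes passed, 0 of 7 members passed. An unadjusted p under 0.05 was found for 4 members and for 3098 of 17453 genes. DESeq2 called 3 members and 907 of 15727 genes. Adgrl2 came closest, at -2.0 ± 0.44 (adjusted p = 0.0502), and its 2 plates at E13 were below its 2 plates at E11. E13 plate 2 also carried ependymal and choroid plexus markers at 3839 CPM (4 of 4 above 0), against 13.6 on E13 plate 1 (3 of 4) and 1.84 to 2.90 at E11 (2 and 4 of 4). Its mural and fibroblast markers were at 787 CPM and its cycling markers at 643 (each 4 of 4), against 1.84 to 111 and 60.2 to 170 on the other 3 plates (3 or 4 of 4, and 4 of 4). Their part in the differences was not tested. The Adgrl2 difference passed in spliced counts (adjusted p = 0.0226, with 1.5% of genes passing) and over Pou4f1-positive wells (adjusted p = 0.0227, with 1.78% passing). Tenm3 differed by -1.47 ± 0.37 (adjusted p = 0.0756), Tenm1 by -1.30 ± 0.47 (adjusted p = 0.193) and Tenm2 by -1.17 ± 0.39 (adjusted p = 0.161). Without E13 plate 1, Tenm3 passed (-2.02, adjusted p = 0.0465) and Tenm2 was at -1.83 (adjusted p = 0.0794). Without E13 plate 2 they were at -1.16 and -0.80 (adjusted p = 0.52 and 0.76). From E13 to E15, 0.0917% of genes and 0 members passed in edgeR, with 2 members under an unadjusted 0.05 and 0 in DESeq2. From E15 to E18, 0.195% of genes and 0 members passed, with 1 member under an unadjusted 0.05. DESeq2 called 1 member and 657 of 14998 genes. Without E18 plate 2, which leaves E18 to plate 1 alone, the log2 differences were -1.76 (Tenm2), -1.41 (Adgrl1) and 1.32 (Tenm4). From P7 to the adult, 3.58% of genes and 0 members passed, with 3 under an unadjusted 0.05 and 0 in DESeq2. With no filter on low counts, edgeR called 4 members from E11 to E13 (Tenm1, Tenm2, Tenm3 and Adgrl2), against 1715 of 37590 genes. It called 2 from E13 to E15 (Tenm2 and Tenm4), against 1249 genes, and 1 from E15 to E18 (Tenm2), against 1461. From P7 to the adult it called 3 (Tenm2, Tenm3 and Adgrl1), against 1766 genes.

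The C57BL/6 plates at E18 did not share the low Tenm2 and Tenm1 of the Brn3a-tauLacZ plates of the same stage. Tenm2 was at 2007 and 1531 CPM on the left plates, 2063 and 1351 on the right plates and 2587 where both sides were taken, all above both series plates of E18. Tenm1 was at 200 and 148, 171 and 141, and 257 CPM in the same order. These plates come from a separate table and another mouse line, so the difference was not tested, and line, preparation and sampling cannot be told apart in it. Both P4 plates were above all 5 C57BL/6 plates in Tenm2, while in Tenm1 the plate of both sides was above both P4 plates.

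No member passed the test between left and right habenula. The left plates carried erythroid markers (3 of 3) at 13124 and 11499 CPM, against 2401 and 217 on the right plates, and their part was not tested. The plate of both sides, which is in neither group, had a Pou4f1 UMI in 46.2% of kept wells, against 73.7% to 81.0% on the other 4, and progenitor markers (7 of 7) at 1770 CPM, against 588 to 951 (7 of 7). Left plate 2 kept only 54 of 384 wells and right plate 2 kept 133, against 283 and 279 on left and right plate 1. Adgrl2 was at 95.9 and 73.1 CPM on the left plates and 90.2 and 67.8 on the right plates. Tenm3 was at 498 and 762 on the left and 542 and 497 on the right. Over 11 alternatives the log2 side difference of Tenm3 ran from -0.56 to 0.38. In edgeR 0 of 7 members passed, 0 had an unadjusted p under 0.05 and DESeq2 called 0, in a comparison where 0.00541% of genes passed.

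Known partners of these proteins or of their FLRT ligands, with the related receptor Adgrl4, were read from the same fits. All 11 are called partners here. The list of 11 held the FLRT ligands Flrt1, Flrt2 and Flrt3, the netrin receptors Unc5a to Unc5d, the scaffolds Shank1 to Shank3, and Adgrl4, a related adhesion receptor of endothelium. From E18 to P4, 1 rose and 2 fell, 3 of 11 against the 19.6% of all genes: Shank2 by 0.91 ± 0.25 (adjusted p = 0.0296), Flrt1 by -2.81 ± 0.82 (adjusted p = 0.0363) and Flrt3 by -2.22 ± 0.38 (adjusted p = 0.00428). The list's median was -1.60, against -0.07 over all genes, and the other 8 of 11 did not pass. The Flrt1 difference did not pass without E18 plate 1 (-1.13, adjusted p = 0.524) or over Pou4f1-positive wells (-1.51 ± 0.73, adjusted p = 0.165). Flrt1 stood at 35.1 CPM on E18 plate 1 and 6.03 on plate 2. Without E18 plate 1, Shank2 (1.37, adjusted p = 0.0122) and Flrt3 (-1.89, adjusted p = 0.016) passed, and Shank2 did not pass without E18 plate 2 (0.66, adjusted p = 0.0754). From E11 to E13, 1 of 11, Unc5d, fell, by -2.55 ± 0.55 (adjusted p = 0.049), and from P7 to the adult 1 of 11, Unc5b, rose, by 2.69 ± 0.65 (adjusted p = 0.0485). Unc5b, at 6.83 and 7.57 CPM on the P7 plates, was at 89.7 on adult plate 1 and 20.1 on plate 2. Endothelial markers (4 of 4 on each) summed to 48.8 and 258 CPM on adult plates 1 and 2, against 45.2 and 40.4 at P7. Oligodendrocyte-lineage markers (6 of 6) were at 8373 and 2487 CPM on the same 2 plates, against 151 and 121 at P7 (5 and 6 of 6), and astrocyte markers (5 of 5) at 1019 and 611, against 122 and 91.7 (5 of 5). Adult plate 1 kept 56 of 384 wells, with a median of 11.9% mitochondrial counts against 4.76% to 5.33% on the other 3 plates. The part of any of these in the Unc5b difference was not tested. In the other stage and side comparisons 0 of 11 passed in edgeR, with 5 under an unadjusted 0.05 and 3 in DESeq2 from E13 to E15, 2 and 1 from E15 to E18, 0 and 0 from P4 to P7, and 1 and 0 for the sides. Over all genes, DESeq2 called 432 of 15727 from E13 to E15 and 657 of 14998 from E15 to E18.

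Some members differed in the same direction on most plates between wells with and without a Pou4f1 UMI. Adgrl1 was higher in Pou4f1-positive wells on 15 of 15 series plates, for example at 417 against 224 CPM on P4 plate 1. Tenm2 was higher there on 14 of 15, and at P4 the gap was wide: 4528 against 527 CPM on plate 1 and 5978 against 1333 on plate 2. The exception was E15 plate 1, with 553 against 2067. On the C57BL/6 plates Tenm2 was higher with Pou4f1 on only 3 of 5, and Adgrl1 on 5 of 5. Tenm4 and Adgrl2 were lower in Pou4f1-positive wells, each on 14 of 15 plates of the series and on 5 of 5 C57BL/6 plates. Adgrl3 was lower with Pou4f1 on 5 of 5 C57BL/6 plates and on 8 of 15 of the series. Tenm3 was higher with Pou4f1 on 8 of 15 series plates and 3 of 5 C57BL/6 plates. Tenm1 was higher with Pou4f1 on 10 of 15 and 2 of 5. Adgrl2 stood at 10.7 against 62.6 CPM on P4 plate 1 and at 7.7 against 142 on P7 plate 1. Such even splits were not particular to the members. Among the partners, Shank1 was higher with Pou4f1 on 15 of 15 series plates and Unc5c lower on 14 of 15, while Flrt2 was higher on 9 of 15. How many of all genes split as evenly was not counted. These are descriptions, since wells of 1 plate are not replicates and a well with few counts can miss Pou4f1.

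To compare wells at P4 and P7 at equal depth, each of 1053 wells with at least 8000 UMIs was thinned to 8000, of which 995 held a Pou4f1 UMI; 176 kept wells were shallower and left out. Tenm2 was found in 240 of 240 and 264 of 264 Pou4f1-positive wells at P4, and in 97.9% and 96.7% at P7, with medians of 26, 39, 27 and 22.5 UMIs per well. Its spread between wells was broad, from a median of 26 to a highest value of 168 UMIs on P4 plate 1. Adgrl1 was found in 89.5% to 94.2% of wells, Adgrl3 in 75.0% to 78.3% and Tenm1 in 67.6% to 78.8%. Tenm4 was found in 26.2% to 33.7%. Wells below the filter also held Tenm2, at 2619 to 4020 CPM in sum, and the part of free RNA in these UMIs was not tested.

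Tenm3 was found in more wells at P7 than at P4. It was in 32.9% (exact 95% interval 27.0 to 39.3) and 27.7% (22.3 to 33.5) of Pou4f1-positive wells at P4, and in 49.5% (43.5 to 55.5) and 53.8% (46.8 to 60.7) at P7. The intervals cover counting error only. On P4 plate 1, 67.4% of all Tenm3 UMIs sat in the 10% of wells with the most of them. The same share was 30.7% for Tenm2 and 23.0% for Adgrl1, but 66.2% for Tenm4 and 100% for Adgrl2. On the P7 plates it was 51.1% and 44.9% for Tenm3, and 57.3% and 60.3% for Tenm4. Adgrl2 was in 8.75% and 7.95% of wells at P4 and in 6.05% and 3.81% at P7. In the 10 to 22 wells per plate without a Pou4f1 UMI, Adgrl2 was in 41.7%, 60.0%, 45.5% and 7.14%. Plates of P4 and P7 did not overlap in the share for 6 of the 7 members, and for 43% of all genes found on the 4 plates; Tenm3 and Adgrl3 were higher at P7, and Tenm1, Tenm2, Adgrl1 and Adgrl2 lower. Outside Tenm3, the nearest plates of P4 and P7 differed by less than 3 percentage points. Thinned to 4000 UMIs, 6 members did not overlap, with Tenm4 (higher) in place of Adgrl2, against 41.3% of all genes. Without thinning, 3 members did not overlap (Tenm3 higher, Tenm1 and Adgrl2 lower), against 43.4%.

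**Figure D3:**
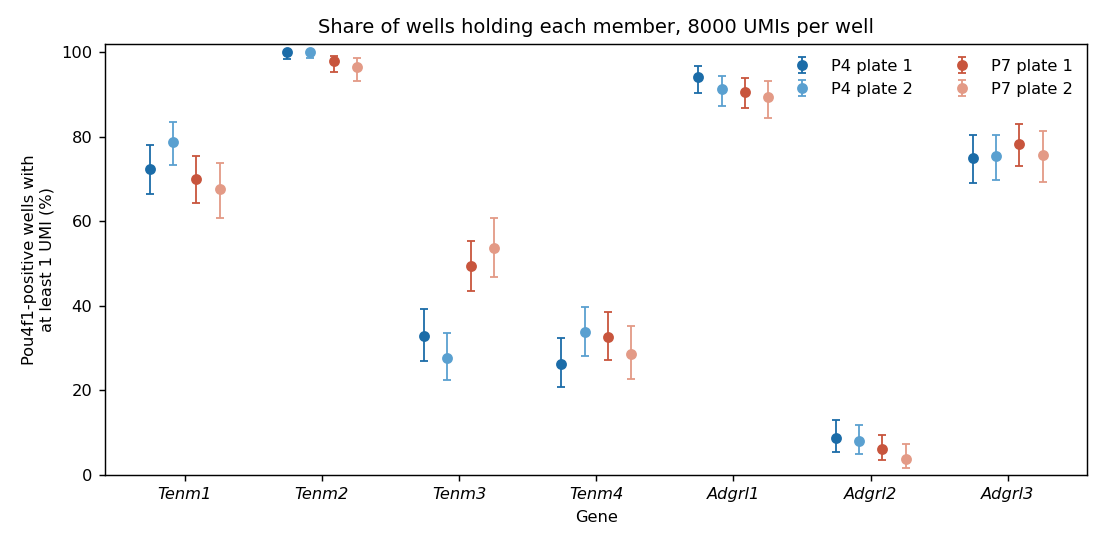
Share of Pou4f1-positive wells with at least 1 UMI of each member (percent, vertical axis) after thinning to 8000 UMIs, with 1 point per plate and exact 95% intervals for counting error. Tenm3 rises from 32.9% and 27.7% at P4 to 49.5% and 53.8% at P7, and Adgrl2 stays under 9%.

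Several members differed between classes of Pou4f1-positive wells at P4 and P7. Wells were divided within each plate at the plate median of a marker's thinned UMIs; the median was 0 for Tac1 and for Chat, so that a high well is one with at least 1 UMI. Tac1-high wells numbered 42 of 240 and 27 of 264 at P4, and 97 of 281 and 77 of 210 at P7. Chat-high wells numbered 88, 112, 78 and 63 on the same plates, and only 6, 7, 11 and 8 wells were both. The classes are ranges of a count, not cell types: 18, 15, 34 and 19 of the Tac1-high wells and 59, 69, 46 and 42 of the Chat-high wells held exactly 1 UMI of the marker. Of the wells without Pou4f1, 2 of 12, 0 of 10, 1 of 22 and 2 of 14 held Tac1.

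In Tac1-high wells Tenm3 and Adgrl3 were higher and Tenm1 and Tenm2 lower than in the other Pou4f1-positive wells of the same plates. Of the 6 members tested, 4 passed (edgeR with plate as a block), against 8.66% of all genes (4.59% higher and 4.07% lower). Tenm3 stood at 461, 537, 524 and 643 CPM in Tac1-high wells of P4 plates 1 and 2 and P7 plates 1 and 2, against 72.6, 98.1, 139 and 185 in the others. All 4 high values exceeded all 4 others, with a log2 difference of 2.14 ± 0.11 (adjusted p = 7.24e-17). Adgrl3 stood at 744, 333, 729 and 636 CPM against 271, 321, 272 and 270, a log2 difference of 1.14 ± 0.12 (adjusted p = 3.59e-09). On P4 plate 2, the plate with the fewest Tac1-high wells, Adgrl3 differed little, and its SE does not show that spread between plates in full. Tenm1 stood at 128, 153, 146 and 135 CPM against 257, 266, 307 and 318 (-1.07 ± 0.11, adjusted p = 2.74e-09). Tenm2 stood at 2568, 4653, 2379 and 2109 CPM against 5364, 6797, 5393 and 4409, a log2 difference of -0.97 ± 0.07 (adjusted p = 3.27e-13). Adgrl1 (-0.14 ± 0.09, adjusted p = 0.449) and Tenm4 (-0.21 ± 0.17, adjusted p = 0.606) did not pass, though Tenm4 did with no thinning (-0.44, adjusted p = 0.0109), and Adgrl2 was too low to be tested.

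In Chat-high wells Tenm3 and Adgrl3 were lower and Tenm2 and Tenm1 higher than in the other wells. These were 4 of 7 members tested, against 4.5% of all genes (1.97% higher and 2.53% lower). Tenm3 stood at 54.0, 55.8, 89.7 and 83.3 CPM, against 191, 207, 342 and 469 in the other wells, a log2 difference of -2.02 ± 0.12 (adjusted p = 3.84e-13). The lowest of the other wells' values was above the highest Chat-high value. Adgrl3 was at 230, 267, 192 and 254 CPM against 425, 363, 522 and 469 (-0.87 ± 0.10, adjusted p = 8.61e-07). Tenm2 was at 6347, 7240, 6002 and 4748 CPM against 4023, 6090, 3719 and 3059 (0.58 ± 0.06, adjusted p = 2.93e-07). Tenm1 was at 284, 268, 325 and 317 CPM against 206, 244, 223 and 222 (0.43 ± 0.09, adjusted p = 0.00224), with a narrow gap on P4 plate 2. The Tenm1 difference did not pass without P7 plate 1, in DESeq2, at 4000 UMIs or with no plate block. With no plate block the Tenm2 difference did not pass either (adjusted p = 0.235). Adgrl1 (0.06 ± 0.08), Tenm4 (-0.16 ± 0.18) and Adgrl2 (-0.13 ± 0.39) did not pass, with adjusted p of 0.825, 0.793 and 0.945. The Tac1 and Chat comparisons share most of their wells, so their opposite signs are not separate evidence.

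**Figure D4:**
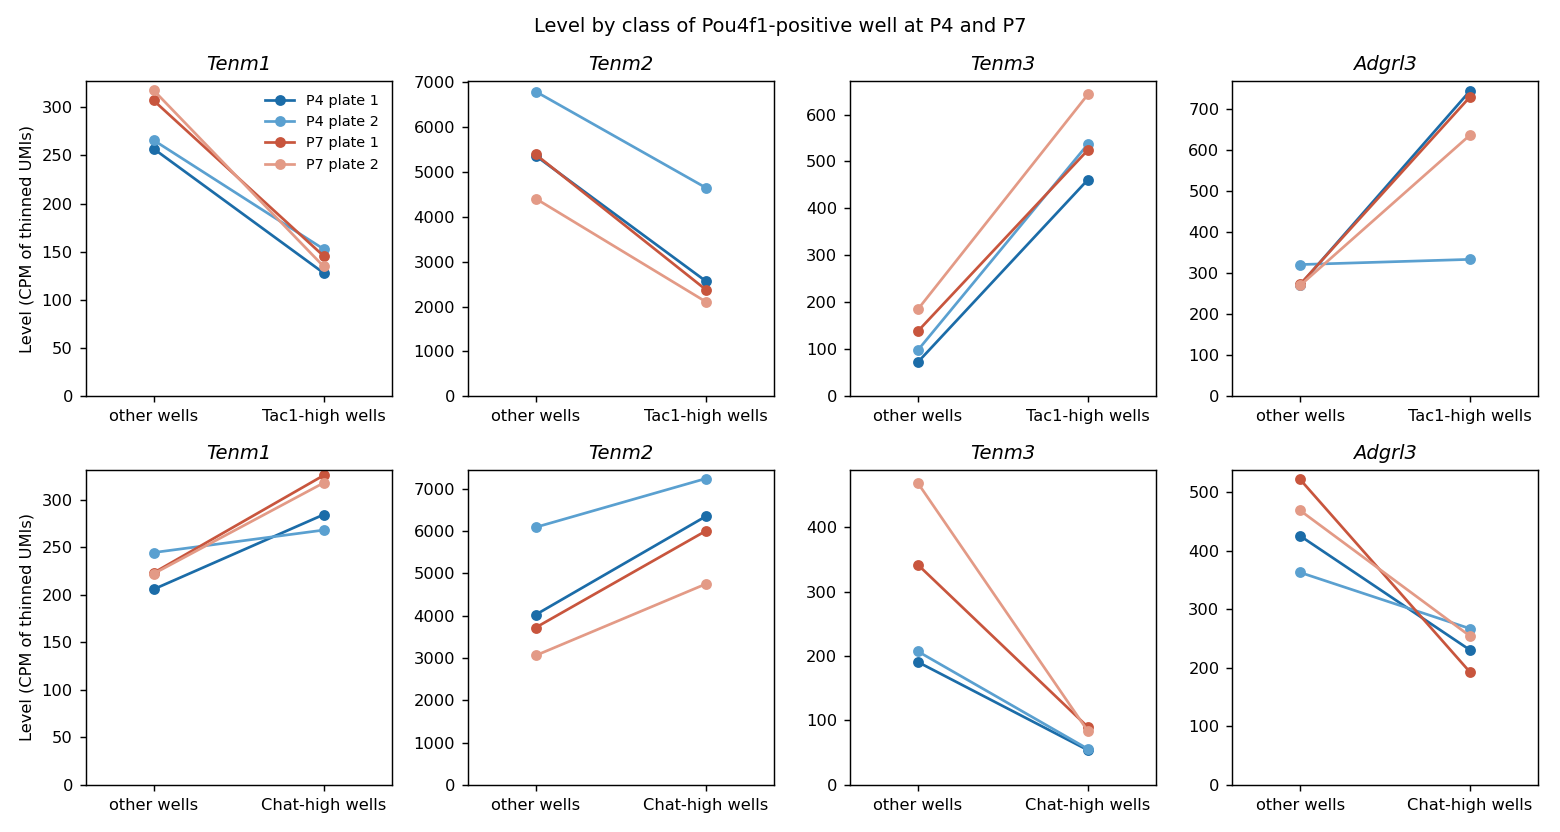
Level (CPM of thinned UMIs, vertical axis from 0) of 4 members in marker-high and other Pou4f1-positive wells, 1 line per plate at P4 and P7, for Tac1 (top row) and Chat (bottom row). Every line for Tenm3 goes up in Tac1-high wells, to 461 to 643 CPM, and down in Chat-high wells, to 54.0 to 89.7 CPM.

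Spliced counts of the same wells and classes, taken without thinning, were compared as well. Spliced Tenm3 was at 41.8, 30.6, 38.4 and 45.4 CPM in Tac1-high wells against 8.41, 9.55, 10.1 and 10.3 in the others, and the log2 difference was 2.01 ± 0.22 (adjusted p = 1.07e-06). In Chat-high wells it was at 5.62, 3.96, 3.70 and 3.19 CPM against 19.2, 17.5, 26.2 and 30.6 (-2.41 ± 0.28, adjusted p = 6.9e-06). Such low values rest on few counts: over all kept wells of P4 plate 1, 724 of 803 Tenm3 counts were unspliced. Spliced Tenm1, Tenm2 and Adgrl3 also passed in both comparisons, in the same directions as in all counts, where 10.6% (Tac1) and 5.82% (Chat) of genes passed. On P4 plate 2 spliced Adgrl3 went the other way for Tac1, at 35.0 CPM in Tac1-high wells against 42.2 in the others.

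Some signals of other cells moved with the classes. Progenitor markers summed to 32.4 to 89.3 CPM in Tac1-high wells (2 to 6 of 7 above 0) and to 93.0 to 242 CPM in the others (5 to 7 of 7). Astrocyte markers were at 15.6 to 25.8 CPM in Chat-high wells (2 to 4 of 5) and 47.6 to 106 in the others (4 or 5 of 5). Oligodendrocyte-lineage markers were at 11.2 to 41.7 CPM in the marker-high wells (2 to 5 of 6), and reached 215 CPM in the wells without Tac1 on P7 plate 1. Their part in the result was not tested. Neuron markers covered like ranges, at 11367 to 12890 CPM in Tac1-high wells and 11715 to 12776 in the others.

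By Gpr151, an orphan receptor of lateral habenula neurons, 4 of 6 members tested passed, against 7.65% of all genes (3.91% higher and 3.74% lower). Adgrl3 (-0.62 ± 0.11, adjusted p = 0.000572) and Tenm2 (-0.61 ± 0.06, adjusted p = 2.46e-07) were lower in Gpr151-high wells. Tenm3 was higher in them (0.69 ± 0.16, adjusted p = 0.00641), as was Tenm1 (0.36 ± 0.11, adjusted p = 0.0367). Single plates went the other way: Tenm3 on P7 plate 1, at 264 CPM against 277, and Tenm1 on P4 plate 2, at 249 against 258. The Tenm3 difference did not pass in spliced counts (adjusted p = 0.274, where 8.89% of genes passed), in DESeq2 (0.448) or without either P4 plate. The Tenm1 difference did not pass in 6 of 12 alternatives, among them DESeq2 (0.371) and each of P4 plate 1, P7 plate 1 and P7 plate 2 left out. With no plate block the Tenm2 difference by Gpr151 did not pass (adjusted p = 0.0804). By Tac2, the neurokinin B gene of medial habenula neurons, only Tenm2 of 6 members passed, against 2.38% of all genes, at 3469, 5731, 3094 and 2457 CPM in Tac2-high wells and 5527, 7102, 5499 and 4536 in the others (-0.65 ± 0.06, adjusted p = 8.78e-09). Tenm2 did not pass with no plate block (adjusted p = 0.612). Tenm3 passed for Tac2 in 3 of 12 alternatives (no thinning, no filter and without P4 plate 1, the last at 0.54 with an adjusted p of 0.0117), and Tenm4 passed with no thinning (-0.62, adjusted p = 0.0269).

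Whether a class difference itself changed between P4 and P7 was tested with an interaction term for each of the 4 markers. Of the members, only Tenm2 by Tac2 (adjusted p = 0.0186, with 0.201% of genes passing) and Tenm3 by Gpr151 (adjusted p = 0.0274, with 0.263% passing) passed. For Tac1 and for Chat 0 members passed in edgeR, the one tool run for this term, with 0.0204% and 0.0989% of genes passing, and 2 of 6 and 3 of 7 members had an unadjusted p under 0.05.

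Of the partners, 8 of 11 could be tested in the class comparisons. In Tac1-high wells Unc5d was higher by 1.23 ± 0.25 (adjusted p = 0.000702) and Flrt3 differed by -1.02 ± 0.28 (adjusted p = 0.0124), and DESeq2 called only Unc5d. In Chat-high wells Unc5c (-2.05 ± 0.31, adjusted p = 4.44e-05) and Unc5d (-2.39 ± 0.30, adjusted p = 2.49e-06) were lower. In Gpr151-high wells 1 partner was higher, Flrt2 (0.43 ± 0.11, adjusted p = 0.0147), where 6 had an unadjusted p under 0.05 and DESeq2 called 0. For Tac2 0 of 8 passed in edgeR, with 0 under an unadjusted 0.05 and 0 in DESeq2.

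Within single wells, teneurin and latrophilin pairs were compared in 12 combinations; for the 3 with Tenm2 only the P7 plates could be used, since at 8000 UMIs every Pou4f1-positive well at P4 held Tenm2. Adgrl3 was less often in wells that held Tenm1 than in the rest, at 71.8% against 83.3% and 74.5% against 78.6% at P4, and 74.6% against 86.9% and 68.3% against 91.2% at P7. At 4000 UMIs P4 plate 2 went the other way, by 9.29 percentage points. With Tenm4 the sign was the same on 4 of 4 plates at 8000 UMIs, at 4000 and without thinning: at 8000, Adgrl3 was in 58.7%, 68.5%, 65.2% and 60.0% of wells with Tenm4, against 80.8%, 78.9%, 84.7% and 82.0% of the rest. For Tenm3 with Adgrl1 or Adgrl2 the sign depended on the thinning. Tenm3 and Adgrl3, both higher in Tac1-high wells, were together more often on 3 of 4 plates, by 18.8 points on P7 plate 1, and less often on P4 plate 2, by 5.73 points. Without thinning they were together more often on 2 plates and less often on 2. Among teneurins, Tenm3 was in 27.6%, 26.9%, 40.6% and 45.1% of wells with Tenm1 and in 47.0%, 30.4%, 70.2% and 72.1% of the rest. Wells of 1 plate share their library, and no test was made.

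The genes whose course over the 15 series plates was most like that of each member (Pearson r of log2(CPM + 1), among 8482 genes with a mean of at least 20 CPM) were Opa1 for Tenm1 (r = 0.940), Ppp1r13b for Tenm2 (0.975), Dok5 for Tenm3 (0.929) and Taf6l for Tenm4 (0.898). They were Prrc2b for Adgrl1 (0.933), Zswim8 for Adgrl2 (0.951) and Otx2 for Adgrl3 (0.900). The next in rank were Coro7 and Cplx1 for Tenm1, Cnst and Gprasp1 for Tenm2, and Gpc1 and Poldip3 for Tenm3. For the others they were Gatad2a (Tenm4), Matr3 and Prkar2b (Adgrl1), Nav2 and Kdm7a (Adgrl2), and Tox4 and Hspa8 (Adgrl3). These are descriptions over plates that share stage, depth and the makeup of their wells.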

How the data were processed

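The authors deposited tables of total, spliced and unspliced transcripts per gene and well. The deposited values are expected counts that the authors made from UMIs (UMI counts corrected for collisions of a 6-base UMI): inverting the correction for 4096 possible UMIs gave whole numbers for 100% of values, to within 1e-06. The planned test needs whole counts, so deposited values were summed per plate over kept wells and rounded. The submitters' processing notes name mm10, STAR 2.5.3a and Trim Galore; the counting program, annotation, strand and sequencing run of each plate are not stated in labels or headers. All 92 spike-in rows were left out.

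Levels are CPM of these sums. Stages were fitted together on 14 plates with edgeR 4.0.16 under R 4.3.3 (filterByExpr, TMM, quasi-likelihood test, Benjamini-Hochberg at 0.05), the sides on 5 plates, and well classes with plate as a block. Standard errors are the log2 difference over the root of F, so they too use a spread estimated partly from other genes. Spreads are SD over plates, and intervals are exact (Clopper-Pearson, 95%), covering counting error only. Alternatives used DESeq2 1.42.0, no filter on low counts, spliced counts, Pou4f1-positive wells and at least 2000 non-mitochondrial counts per well. Others used whole UMIs, thinning to 4000 UMIs, and each plate left out. In the stage and side fits, leaving out a plate leaves 1 plate in its group, so the spread then comes from the other groups. Spliced class counts and the removal of wells above 3 times the plate median UMIs were added after seeing the data. No doublet caller was run. The fits were tested on simulated data. The members, the partner list and the marker lists were chosen with earlier results of these data known. Named genes are the 7 members, the 11 partners, and for each member the 3 genes of highest r, of which 1 is not reported here. All plates share the same 384 well barcodes by design, and 0 kept wells were identical between plates. Sums and figures were made with pandas 2.3.3, scipy 1.17.1, matplotlib 3.10.9 and numpy 2.4.6 (Python 3.11.15).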

Additional observations from a re-analysis of the deposited data

Results flagged for a closer look

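The difference in Tenm2 between Tac2-high and other wells was larger at P7 than at P4: the change of the log2 difference was -0.36 ± 0.09 (SE, adjusted p = 0.0186, interaction term in edgeR over 4 plates). Tenm2 in Tac2-high wells was at 3469 and 5731 CPM at P4 and at 3094 and 2457 at P7, against 5527 and 7102, then 5499 and 4536, in the other wells. The plate median that divides the wells was 1 and 0 Tac2 UMIs at P4 and 3 at P7, so the classes were not cut at the same level.

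The difference in Tenm3 between Gpr151-high and other wells also depended on age, with a change of -1.08 ± 0.22 from P4 to P7 (adjusted p = 0.0274). Tenm3 was at 201 and 244 CPM in Gpr151-high wells at P4 against 101 and 77.3 in the others, and at 264 and 434 against 277 and 296 at P7. On P7 plate 1 the 2 classes were nearly level. The dividing median was 0 Gpr151 UMIs at P4 and 1 at P7. Over all genes, 20 of 9958 passed the Tac2 interaction and 26 of 9901 the Gpr151 interaction.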

How the results depend on the processing

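The Tac1-high differences of Tenm1, Tenm2, Tenm3 and Adgrl3 and the Chat-high differences of Tenm3 and Adgrl3 passed in 12 of 12 alternatives. From E18 to P4, Tenm1 and Tenm2 passed in 11 of 12. The cause of every change below was not tested. Stage counts of calls moved under DESeq2 (E11 to E13 907, E13 to E15 432, E15 to E18 657, P4 to P7 21, P7 to adult 1359), with no filter (1715, 1249, 1461, 136 and 1766) and over the plates of the 2 stages alone (0 from E13 to E15, 0 from E15 to E18, 528 from E18 to P4, 541 from P4 to P7). Spliced counts gave 4 calls from E13 to E15 and 4 from E15 to E18. For the sides, the count was 0 in DESeq2, in Pou4f1-positive wells and in spliced counts, and 33 with no filter. With single plates left out, calls ran from 28 to 482 (E11 to E13), 1 to 81 (E13 to E15), 4 to 2100 (E15 to E18; 2100 without E18 plate 2), 574 to 5695 (E18 to P4; 5695 without E18 plate 2), 0 to 0 (P4 to P7), 27 to 1074 (P7 to adult) and 16 to 42 (sides).

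Class counts moved with thinning to 4000 UMIs (Tac1 480, Chat 214, Tac2 93), without thinning (1371, 1117, 431 and, for Gpr151, 1268), in DESeq2 (418, 160, 55 and 340), over wells with or without Pou4f1 (Chat 856, Tac2 480), and in spliced counts (Tac2 412). With single plates left out they ran from 556 to 899 (Tac1), 263 to 530 (Chat), 114 to 196 (Tac2) and 570 to 685 (Gpr151). Shares of wells at P4 and P7 did not overlap for 3 members without thinning (43.4% of all genes) and for 6 at 8000 and at 4000 UMIs (43% and 41.3%).

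Replicate numbers did not pair the series plates: same-numbered plates deviated together with r above 0.1 in 7 of 21 pairs of stages. The left and right plates gave r = 0.268 over the 1 pair of groups, too few to pair them. With a replicate block, calls were 4 from E13 to E15, 16 from E15 to E18 and 36 for the sides. With no replicate block in the class tests, calls were 486 (Tac1), 121 (Chat), 0 (Tac2) and 330 (Gpr151), and Tenm2 (Chat, Tac2, Gpr151), Tenm1 (Chat, Gpr151) and Tenm3 (Gpr151) no longer passed.

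Signs turned only in differences that had not passed. From E18 to P4, Tenm4 was 0.27 over Pou4f1-positive wells, and -1.35 to 1.19 with single plates left out. At 4000 UMIs the values were 0.10 (Adgrl1, Tac1), -0.043 (Adgrl1, Chat), 0.0044 (Tenm4, Chat) and -0.22 (Tenm1, Tac2). Without thinning they were 0.25 (Tenm4, Chat), -0.040 (Tenm1, Tac2) and -0.11 (Tenm4, Gpr151). In spliced counts they were 0.16 (Adgrl2, Chat), 0.14 (Tenm4, Chat) and -0.062 (Tenm4, Gpr151). With single plates left out, Adgrl2 in the Chat classes could be tested without either P7 plate only (0.025 without plate 1, 0.12 without plate 2), and Tenm4 in the Tac2 classes ran from -0.52 to 0.035. The median log2 difference over all genes from E18 to P4 was -0.07 in edgeR and -0.19 in DESeq2, and for Tac1 -0.00097 and 0.21, over a wider set of genes in DESeq2.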
